A study of Mus musculus with 27 samples.

Results

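CD8 T cells that carry a Lin28b transgene, and so cannot finish making the let-7 microRNAs, were compared at 2 stages of their differentiation in culture: 12 h after activation and as cytotoxic T lymphocytes (CTLs) on day 5. The 6 libraries of these 2 groups, 3 per stage, were taken by their labels from the 27 libraries and 9 groups of the series, and the comparison covered all 35275 genes of the deposited tables. The other groups of the series are wild-type (WT) and let-7Tg cells at the same stages, and naive cells of each genotype. The activated WT and let-7Tg libraries are used here only where the change between stages is set beside that of the lin28Tg cells.

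All groups came from P14+ mice, whose CD8 T cells all carry 1 transgenic receptor that recognises gp33, a peptide of the mouse virus LCMV, and the study's methods place the lin28Tg and let-7Tg lines on a Rag2-/- background, which lets no other T or B cell rearrange a receptor. The labels name the genotype Lin28bTg P14+. The let-7Tg line carries a doxycycline-inducible let-7g transgene, and doxycycline at 2 μg/mL was in the cultures of both stages, in the lin28Tg cells as well. Cells were taken from lymph nodes and spleens. The 12 h cells were stimulated with antibodies to CD3 (2 μg/mL) and CD28 (5 μg/mL). The day 5 CTLs were instead started on irradiated splenocytes with soluble anti-CD3 (2 μg/mL), were given IL-2 (100 U/mL) at 48 h and were kept for 3 more days. The stages therefore differ in stimulus, feeder cells and IL-2 as well as in time, and these cannot be told apart. The promoter that drives the Lin28b transgene is not given in the sources used here. The study calls the 3 libraries of a group biological replicates, and the labels do not say whether they came from separate mice, so the p-values measure the spread between these libraries.

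let-7 microRNAs are short RNAs that pair through a seed near their 5′ end with complementary sites in the 3′ untranslated region (UTR) of messenger RNAs and lower the output of those messages. LIN28 proteins bind the let-7 precursors and stop their maturation. In T cells let-7 is abundant in the resting state and falls on activation, and CTLs are the cells that kill infected or transformed targets with perforin and granzymes stored in lytic granules.

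Of the 11 mature family members listed, 10 share the seed GAGGUAG (bases 2 to 8). They are shown because the sites looked for in the genes below pair with this seed. The sequences are from RefSeq (GRCm38.p6), 5′ to 3′, with bases 2 to 8 in capitals. let-7g-5p, the member that the let-7Tg mice over-express, lies at chr9:106178846-106178867. let-7j is the 1 member with another seed.
let-7g-5p: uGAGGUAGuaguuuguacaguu
let-7a-5p: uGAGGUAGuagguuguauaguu
let-7b-5p: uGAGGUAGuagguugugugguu
miR-98-5p: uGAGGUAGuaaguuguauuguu
let-7j: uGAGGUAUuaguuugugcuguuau

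Lin28b (chr10:45376620-45486395, minus strand, GENCODE release M21 on GRCm38) was read first, as the check of the genotype. Its level in fragments per kilobase of gene and per unit of sequencing depth (FPKM, the deposited unit) was 12.6, 10.2 and 9.94 in the 3 libraries at 12 h and 21.9, 14 and 22.4 on day 5. All 6 lin28Tg libraries stood far above the other genotypes, whose means were 0.0270 (WT) and 0.0195 (let-7Tg) at 12 h and 0 and 0.0144 on day 5. Between the stages the day 5 libraries were higher without overlap (log2 change 0.73 ± 0.18 SE, adjusted p = 0.00822). Every fold change and adjusted p here comes from limma on log2(scaled FPKM + 0.5) with Benjamini-Hochberg adjustment over all genes tested, and a gene is said to have risen or fallen on day 5 where the adjusted p is under 0.05. Reads of the transgene and of the mouse's own Lin28b gene cannot be told apart in these tables.

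The 2 stages were far apart. The recovered depth was 15757137 to 17149792 reads per library at 12 h and 19256915 to 22195653 on day 5, and 10 reads on a gene of 2 kb came to between 0.225 and 0.317 FPKM. The distance between libraries on the log2 scale was 145 on average between the stages (139 to 152), against 32.5 within the 12 h group and 43.7 within the day 5 group. Of the 12645 genes with enough reads, 9163 (72.5%) differed: 4504 (35.6%) rose and 4659 (36.8%) fell by day 5. The 3 libraries of 1 stage lay wholly above those of the other for 9729 genes (76.9%), with day 5 above for 39.9% and below for 37.1%. At least 2-fold changes past the test were found for 3952 genes (31.3%), of which 2174 (17.2%) rose and 1778 (14.1%) fell. The median log2 change over all genes tested was -0.01, and these shares are the background for every count below. A gene absent at 1 stage could enter only through the other: 465 genes were tested through day 5 alone, of which 448 were called, and 438 through 12 h alone, of which 428 were called. The other 22630 genes were too low to test, 13808 of them without a read in any of the 6 libraries.

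The genes that rose most included 4 granzymes and 2 S100 genes, and those that fell most included 5 chemokines, 3 cytokines and Ccr7. By the rule for named genes, which takes the 12 largest changes in each direction among non-overlapping genes of at least 20 FPKM, the highest were Ifitm1 (8.85 on the log2 scale), Gzma (8.64), Gzmd (8.48), Gzme (7.71), Scd1 (6.77), Bnip3 (6.75), Hist1h2ap (6.74), Aldoc (6.72), Gzmf (6.58), S100a4 (6.35), Ctla2b (6.27) and S100a6 (6.18). The lowest were Xcl1 (-11.46), Ccl3 (-9.99), Lad1 (-8.34), Il3 (-7.77), Ifng (-7.77), Ccl9 (-7.63), Ccl22 (-7.63), Il2 (-7.46), Ccl4 (-7.45), Cd200 (-7.41), Ccr7 (-7.09) and Hbb-bs (-7.02). Of the lowest, Lad1, Il3, Ccl9, Ccl22, Il2, Cd200 and Hbb-bs were tested through 12 h alone, so that they could only fall. Of the highest, Gzmd, Gzme and Gzmf had few reads or none at 12 h, were tested through day 5 alone and could only rise. Scd1, Hist1h2ap and Aldoc were also low at 12 h (values below), so the filter may have fixed their rise too. The plot of levels by library shows several genes named here and other members of the groups described next.

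**Figure D1:**
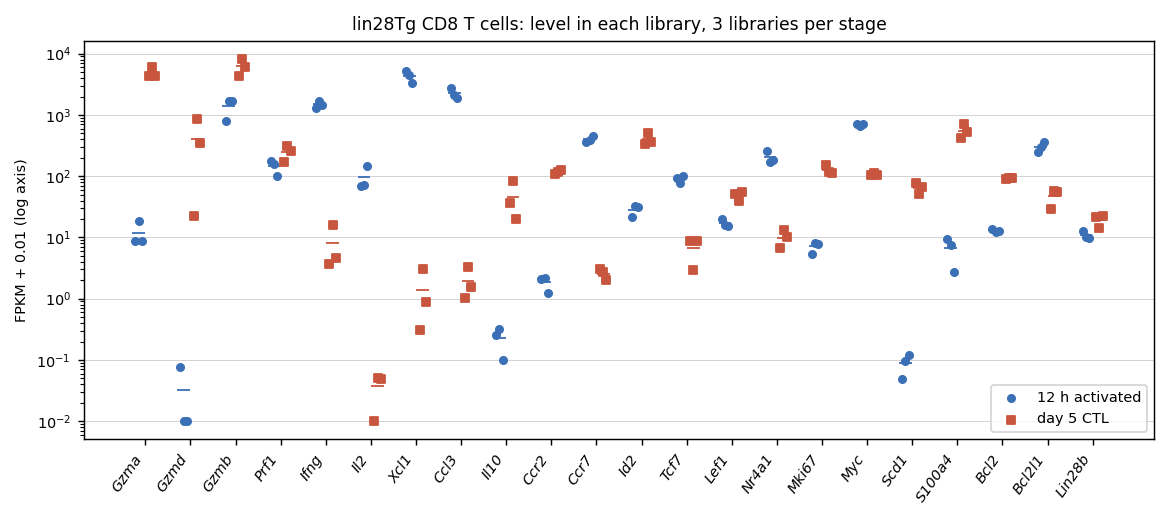
Levels of 22 genes in the 6 lin28Tg libraries. The vertical axis is FPKM + 0.01 (log axis), each blue dot is 1 library at 12 h and each red square 1 on day 5, and short bars mark the mean of 3. Gzma sat at 8.67 to 18.4 FPKM at 12 h and at 4315 to 6046 on day 5, and Ccr7 at 357 to 456 and at 1.98 to 3.02.

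Lytic granule genes rose as a group. Of 25 listed members 24 could be tested; 18 rose, 5 fell and 1 did not pass the test, with a median log2 change of 1.17, against 35.6% and 36.8% of all genes and a median of -0.01. Of the 18, 5 (Gzmd, Gzme, Gzmf, Gzmg and Gzmk) were tested through day 5 alone, so that their rise was fixed by the filter. Of the 19 tested through both stages 13 rose and 5 fell. Gzma (chr13:113093825-113100981), a tryptase-like granzyme, was at 8.67, 18.4 and 8.70 FPKM at 12 h and at 4315, 6046 and 4371 on day 5. Gzmb (chr14:56258838-56262260), the granzyme that cleaves caspase substrates in the target cell, was already at 797, 1661 and 1710 FPKM at 12 h and reached 4373, 8237 and 5954 on day 5. Both granzymes were higher in every day 5 library, Gzma by 8.64 ± 0.29 (adjusted p = 8.22e-07) and Gzmb by 2.13 ± 0.34 (adjusted p = 7.97e-04) on the log2 scale. Gzmc, a member of the Gzmb cluster on chromosome 14, went from 29.8, 50.6 and 36.6 to 743, 3018 and 1297 FPKM (log2 change 5.15).

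Its neighbours Gzmd, Gzme, Gzmf and Gzmg passed from near or at 0 reads at 12 h to levels that differed widely between the day 5 libraries. Gzmd was at 0.0658, 0 and 0 FPKM at 12 h and at 22.2, 862 and 351 on day 5. Gzme was at 0 in all 3 libraries at 12 h and at 17.3, 408 and 168 on day 5, and Gzmg, likewise at 0, reached 1.77, 221 and 64.8. In each of these genes day 5 replicate 1 was the lowest and replicate 2 the highest. Against a floor of 3 reads per library, Gzme was at least 1008-fold and Gzmg at least 483-fold higher on day 5, and the ratio of reads was 1333 for Gzmf (95% interval 456 to 6464). Intervals and floors cover counting error only. On the recovered reads with limma-voom none of the 4 passed (adjusted p = 0.152 for Gzmd, 0.0933 for Gzme, 0.0688 for Gzmf and 0.221 for Gzmg). These 4 genes are near copies of each other, so the split of reads between them is uncertain.

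Gzmk (chr13:113171608-113225908), a granzyme of effector-memory CD8 cells that lies beside Gzma, was at 0 in all 12 h libraries and at 19.9, 5.26 and 23.0 FPKM on day 5, at least 95.3-fold higher. Prf1, which encodes the pore-forming perforin, was at 176, 155 and 101 FPKM at 12 h and 171, 307 and 254 on day 5. The Prf1 groups overlapped, and its log2 change of 0.70 ± 0.27 passed narrowly (adjusted p = 0.0457) and did not pass with a replicate block (adjusted p = 0.0540), in the model over 18 libraries (0.0579), with no filter on low values (0.0914) or without any 1 of 12 h replicates 2 and 3 and day 5 replicates 2 and 3 (adjusted p up to 0.159). Fasl, the death ligand for Fas, rose from 7.87, 7.36 and 4.49 to 36.9, 39.1 and 45.5 FPKM (log2 change 2.51). The lysosomal protease Ctsd rose from 57.2, 64.0 and 53.3 to 575, 785 and 719 FPKM (3.50), and Ctsw, a cathepsin of killer cells, from 56.3, 51.6 and 42.3 to 165, 162 and 161 (1.64). The exocytosis genes Rab27a (1.16) and Unc13d (1.17) and the granule membrane protein Nkg7 (0.55) rose as well. The 5 that fell were the syntaxin Stx11 (-1.78), the granule proteoglycan Srgn (-0.98), the granzyme inhibitors Serpinb6b (-0.94) and Serpinb9 (-0.81), and Lamp1 (-0.25).

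Cytokine genes moved the other way. Of 26 tested members of 31 listed, 17 fell, each by at least 2-fold, 7 rose and 2 did not pass, and the median log2 change was -2.73. Of the 18 tested through both stages 11 fell and 5 rose, with a median of -2.79. Ifng (chr10:118441046-118445892), the main antiviral cytokine of CD8 cells, was at 1310, 1666 and 1473 FPKM at 12 h and at 3.74, 15.7 and 4.59 on day 5 (log2 change -7.77 ± 0.46, adjusted p = 6.07e-06). Il2, the T cell growth factor, was at 68.6, 72.4 and 147 FPKM at 12 h and at 0, 0.0415 and 0.0394 on day 5, a ratio of reads of 3463 (95% interval 958 to 28601). Il3 was at 108, 98.7 and 113 FPKM at 12 h and without a read on day 5, so that it was at least 464-fold lower. In all 3 genes each 12 h library lay above each day 5 library. Il2 and Il3 were tested through 12 h alone, so that their fall was fixed by the filter.

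Tnf fell from 141, 89.7 and 129 to 10.5, 44.0 and 13.2 FPKM (log2 change -2.70), and its neighbour Lta, a lymphotoxin gene, fell too (-3.55). The TNF-family ligands Tnfsf8 (-4.74), Tnfsf14 (-4.50), Tnfsf11 (-3.82) and Cd40lg (-2.43) fell, as did Lif (-4.34) and Csf2 (-2.88). Cd40lg was tested through 12 h alone. The 7 members that rose included Il10, an inhibitory cytokine, which went from 0.242, 0.316 and 0.0890 to 36.7, 81.9 and 19.7 FPKM (5.77 ± 0.46, adjusted p = 2.11e-05), and Il24, from 0, 0.210 and 0.139 to 3.02, 26.7 and 3.42 FPKM. Il16 (2.51), Ebi3 (1.27), Csf1 (1.03), Osm (0.88) and Tgfb1 (0.60) also rose. Of the 7, 2 were tested through day 5 alone, so that their rise was fixed by the filter. Il10 and Il24 both had few reads at 12 h.

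Chemokine genes fell. Of the 15 listed 12 could be tested, but 8 of these, Ccl22 and Ccl9 among them, passed the filter on low values through their 12 h level alone, so that their fall was fixed by the filter. The other 4, Xcl1, Ccl3, Ccl4 and Ccl5, all fell by at least 2-fold. Xcl1 (chr1:164931644-164935527), which attracts cross-presenting dendritic cells, was at 5141, 4561 and 3325 FPKM at 12 h, among the highest levels in these libraries, and at 0.298, 3.00 and 0.861 on day 5 (-11.46 ± 0.48, adjusted p = 1.70e-06). Ccl3 fell from 2717, 2128 and 1901 to 1.02, 3.28 and 1.53 FPKM, and Ccl4, its neighbour on chromosome 11, from 1464, 1014 and 1206 to 3.86, 10.1 and 7.58. Both attract T cells and myeloid cells to inflamed tissue. Ccl5 fell least of the 4, from 44.2, 44.4 and 33.1 to 32.4, 6.17 and 17.2 FPKM (-1.43, adjusted p = 0.0315), and lost its call without 12 h replicate 1 or 2 or day 5 replicate 3 (adjusted p up to 0.0818). Ccl22 was at 90.1, 125 and 80.0 FPKM at 12 h and without a read on day 5, at least 894-fold lower. Ccl22 is also a gene of dendritic cells, and markers of those cells were higher at 12 h as well (values below). Their part in its fall was not tested.

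The 12 h lin28Tg cells also held reads of type 17 cytokines. Il17a (chr1:20730905-20734496) was at 6.67, 9.28 and 13.5 FPKM at 12 h and at 0.0887, 0.649 and 0.0385 on day 5 (log2 change -3.83 ± 0.35, adjusted p = 3.94e-05). Il17f was at 12.7, 16.6 and 33.3 and then at 1.88, 0.891 and 0.338 FPKM, and Il22 at 6.12, 11.7 and 21 and then at 0.0468, 0.171 and 0. Ccr6, a chemokine receptor of type 17 cells, fell from 1.20, 2.14 and 3.26 to 0.109, 0.132 and 0.0943 (-2.10). None of these 4 genes overlapped between the stages, as was so for 76.9% of all genes tested. Il22 and Ccr6 were tested through 12 h alone, so that their fall was fixed by the filter. In bulk RNA, a change in the share of cells that express such genes cannot be told apart from a change in RNA per cell.

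Transcription factors of effector differentiation moved in both directions: of 25 tested, 13 rose, 7 fell and 5 did not pass, with a median log2 change of 0.69. Id2, an inhibitor of E proteins that effector cells need, rose from 21.7, 32.1 and 31.6 to 334, 513 and 364 FPKM (3.74 ± 0.21, adjusted p = 4.63e-06). Prdm1, the gene of BLIMP-1, rose from 0.676, 0.961 and 0.897 to 18.5, 10.7 and 15.4 FPKM (3.44). Its relative Zfp683, which encodes HOBIT, rose by 5.18, Nfil3 by 3.08 and Eomes by 1.30 on the log2 scale. Tbx21, which encodes T-bet, fell from 39.6, 42.3 and 58.0 to 19.8, 21.3 and 19.1 FPKM (-1.24). Irf4, a factor that follows receptor signal strength, fell from 166, 168 and 198 to 12.5, 13.4 and 14.8 FPKM (-3.71), and Zeb2, a factor of terminal effectors, fell as well (-4.22).

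The memory-associated factors split evenly, with 9 that rose, 9 that fell by at least 2-fold and 4 not called of 22 tested. Over all genes 35.6% rose and 36.8% fell. Tcf7 (chr11:52252371-52283014), which encodes TCF-1, the factor of stem-like and memory CD8 cells, fell from 92.7, 77.6 and 100.0 to 8.60, 2.93 and 8.79 FPKM (-3.82 ± 0.35, adjusted p = 4.47e-05). Its relative Lef1 rose from 20.1, 15.7 and 15.2 to 51.3, 39.9 and 55.6 FPKM (1.44). Id3 (-2.74), Bach2, a repressor of effector genes (-2.87), Klf3 (-2.54) and Foxp1 (-2.18) fell, while Bcl2, the survival factor, rose from 13.6, 12.2 and 12.6 to 90.0, 91.9 and 94.3 FPKM (2.75). Klf2, which keeps lymph node homing genes on, was not called (0.20, adjusted p = 0.597). Of 24 tested genes that the study names for terminal effector cells 14 rose and 5 fell (median 1.16), and of 14 that it names for memory 4 rose and 7 fell (median -1.10). The study chose both lists on these samples, so their direction is not independent evidence.

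Among 26 tested homing and adhesion genes, 12 rose and 10 fell. Ccr7 (chr11:99144196-99155077, minus strand), the receptor that brings T cells into lymph nodes, was at 357, 386 and 456 FPKM at 12 h and at 3.02, 2.69 and 1.98 on day 5 (-7.09 ± 0.14, adjusted p = 2.24e-07). Cxcr3, a receptor of inflamed tissue, fell from 32.0, 25.6 and 18.5 to 6.33, 2.71 and 7.52 (-2.23). Ccr2, a receptor for inflammatory chemokines, rose from 2.10, 2.21 and 1.24 to 111, 116 and 124 FPKM (5.62 ± 0.18, adjusted p = 6.57e-07). Itgb7 (3.06), Cxcr4 (1.91), Selplg (1.49) and S1pr4 (0.99) rose, and Ccr4 (-2.74), Ccr9 (-2.51), Ccr8 (-1.32) and the activation marker Cd44 (-1.73) fell. Ccr9, like Ccr6 above, was tested through 12 h alone. S1pr1, the exit receptor of lymph nodes, had overlapping groups, and its log2 change of 1.44 (adjusted p = 0.0288) was lost in the model over 18 libraries (adjusted p = 0.0679), with no filter (0.0636) and without any 1 of 12 h replicates 2 and 3 and day 5 replicates 1 and 3 (adjusted p up to 0.104).

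Immediate-early genes, which antigen receptor signals switch on within minutes to hours, were lower on day 5: 26 of 34 fell, 1 rose and 7 did not pass, with a median of -1.58. Nr4a1, a reporter of receptor signalling, fell from 256, 171 and 186 to 6.61, 13 and 10.2 FPKM (-4.38), and Nr4a2 (-4.64), Egr3 (-3.71), Nfkbia (-3.52), Spry1 (-5.04) and Cd69 (-1.60) fell with it. Egr2 fell from 106, 70.9 and 78.8 to 0.597, 11 and 1.55 FPKM (-4.88). Egr1 was at 38.0, 29.4 and 27.3 at 12 h and at 14.1, 281 and 2.38 on day 5 and was not called (adjusted p = 0.753). Day 5 replicate 2 was the highest of its group for Egr1, Egr2 and Nr4a1, as it was for Tnf, Ifng and the Gzmd to Gzmg genes above. The 1 gene that rose was Ier3 (1.29).

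Receptor genes moved in both directions. Of 19 tested inhibitory receptors and ligands 6 rose and 8 fell, where 35.6% and 36.8% of all genes did. Havcr2, which encodes TIM-3, rose from 4.21, 3.13 and 3.09 to 47.4, 87.0 and 53.8 FPKM (3.90 ± 0.23, adjusted p = 6.43e-06), Ctla4 from 17.6, 32.0 and 29.5 to 189, 108 and 90.0 (2.18), and the ectonucleotidase Entpd1 rose by 5.64. Pdcd1, the gene of PD-1, fell from 97.1, 73.8 and 69.8 to 12.2, 38.0 and 18.5 FPKM (-1.98), and Btla fell by 4.62. Cd200, whose product quiets myeloid cells, fell from 106, 147 and 157 to 0.455, 0.468 and 0.0987 FPKM, but it was tested through 12 h alone. Lag3 fell slightly (-0.41, adjusted p = 0.0219) and lost its call without 12 h replicate 2 and in the model over 18 libraries.

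Of 22 costimulatory genes 4 rose and 10 fell, with a median of -0.34. Slamf1 fell from 49.8, 39.9 and 40.4 to 2.86, 1.63 and 1.90 FPKM (-4.13), Cd27, a receptor of early and memory cells, from 297, 263 and 251 to 69.5, 35.6 and 64.4 (-2.36), and Tnfrsf4, which encodes OX40, from 42.3, 70.4 and 71.3 to 15.8, 10.7 and 10.1 (-2.33). Crtam (-5.79) and Tnfrsf25 (-3.18) fell as well. Tnfrsf9, the gene of 4-1BB, was at 611, 615 and 662 FPKM at 12 h and at 533, 780 and 642 on day 5, with overlapping groups and no call.

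NK receptor genes gave 8 higher and 6 lower of 18 tested, 4 of the lower ones through 12 h alone. Klrb1c, the gene of the NK1.1 antigen, rose from 1.23, 2.77 and 1.05 to 93.9, 60.8 and 158 FPKM (5.51 ± 0.39, adjusted p = 1.31e-05), Klrd1, which encodes CD94, from 59.6, 58.3 and 39.2 to 412, 264 and 300 (2.57), and the NKG2D gene Klrk1 by 2.42. Klrb1b (-2.53) and Klra7 (-1.67) fell, and Klrg1 was not called (-0.01, adjusted p = 0.986). Of 30 cytokine receptor genes 9 rose and 13 fell, 4 of the latter tested through 12 h alone. Il2rb, the IL-2 and IL-15 receptor chain, rose from 172, 182 and 197 to 445, 733 and 710 FPKM (1.68), Il18r1 from 7.76, 8.12 and 5.03 to 185, 80.5 and 124 (4.02), and Il18rap by 3.27. Csf2rb (-3.08), Il6ra (-2.41) and the shared chain gene Il2rg (-0.96) fell, and Il2ra was not called (-0.21, adjusted p = 0.208).

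Of 36 T cell receptor complex and signalling genes 19 rose and 11 fell. Cd3g rose from 208, 146 and 128 to 623, 571 and 535 FPKM (1.81) and Cd3e by 0.95, while Cd5 (-5.70) and Cd6 (-5.21), a pair of neighbouring genes whose products damp receptor signals, fell to the lowest of the list. Cd8a was at 127, 135 and 138 FPKM at 12 h and at 129, 142 and 132 on day 5, with overlapping groups (-0.05, adjusted p = 0.558). Cd8b1 rose by 0.75. Of 24 JAK and STAT pathway genes 7 rose and 9 fell. Stat5a, which carries the IL-2 signal, fell from 169, 190 and 251 to 19.2, 20.7 and 20.2 FPKM (-3.35 ± 0.14, adjusted p = 1.61e-06), and Socs2 rose by 2.39. Among 23 apoptosis genes of the BCL2 and caspase families 11 rose and 8 fell. Bcl2l1, which encodes BCL-XL, fell from 250, 301 and 360 to 29.2, 57.6 and 55.3 FPKM (-2.77) and Mcl1 by 1.11, while Pmaip1 rose (2.20).

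**Figure D2:**
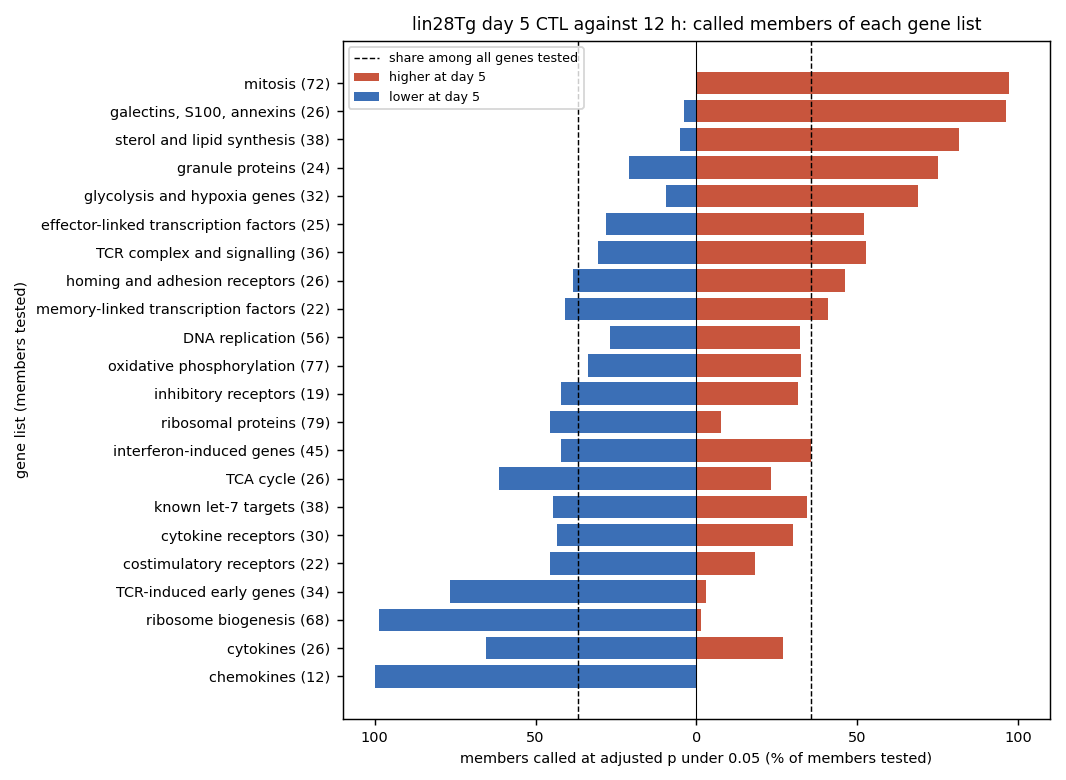
Share of the tested members of 22 gene lists that rose (to the right) or fell (to the left) by day 5 in lin28Tg cells, in percent. Dashed lines mark the share over all genes tested, 35.6% higher and 36.8% lower, and mitosis, chemokine and ribosome biogenesis genes lie farthest from them, though 8 of the 12 chemokine genes were tested through 12 h alone.

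The genes of mitosis rose nearly throughout. All 72 listed members could be tested, 70 rose, 67 of them by at least 2-fold, none fell, and the median log2 change was 2.47 with a range of 0.28 to 5.33. Pttg1 and Cks2 did not pass. Mki67, the proliferation marker Ki-67, rose from 5.30, 8.22 and 7.92 to 153, 116 and 111 FPKM (4.01 ± 0.18, adjusted p = 2.17e-06). Ccna2, the cyclin of S and G2 phase, rose from 14.7, 25.8 and 24.9 to 207, 151 and 164 FPKM (2.94), the mitotic cyclin Ccnb1 from 9.41, 16.7 and 14.1 to 143, 120 and 131 (3.22), and the kinase Plk1 from 5.53, 8.39 and 7.04 to 80.2, 70.2 and 67.1 (3.24). For all 4 the day 5 libraries lay above the 12 h libraries. The largest changes were those of Ccnb2 (5.33), Nusap1 (4.45), Cenpf (4.25) and Hmmr (4.20).

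DNA replication genes did not share that pattern. Of 56 members 18 rose, 15 fell and 23 did not pass, with a median of 0.02. Pcna, the replication clamp, was at 443, 533 and 519 FPKM at 12 h and at 475, 505 and 500 on day 5 (-0.07, adjusted p = 0.508). The helicase gene Mcm5 fell from 146, 172 and 165 to 88.8, 85.3 and 79.5 FPKM (-0.98), and Mcm2 (-0.84) and Orc2 (-1.15) fell too. Rrm2, a subunit of ribonucleotide reductase, rose from 49.4, 85.8 and 83.7 to 310, 338 and 272 FPKM (2.04), and Tk1 by 2.55. Of 31 tested regulators of G1 and the E2F pathway 20 rose and 9 fell (median 1.26). E2f2 rose from 4.05, 5.51 and 5.64 to 60.0, 36.3 and 44.8 FPKM (3.02), Ccnd3 from 76.1, 95.5 and 81.1 to 254, 253 and 252 (1.53), and the inhibitor genes Cdkn2a (4.04), Cdkn2c (3.03), Cdkn1b (2.20) and Cdkn1a (1.60) rose as well. E2f1 (-0.57), Ccnd2 (-1.34) and Cdc25a (-1.21) fell. The histone gene Hist1h2ap went from 0.263, 0.613 and 0.847 to 105, 117 and 123 FPKM, and its reads can be shared with near-identical histone copies.

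Ribosome biogenesis was the reverse of mitosis. Of 68 members 67 fell, 63 of them by at least 2-fold, with a median of -1.71, and the 1 that rose was Mycn, which went from 0.519, 0.935 and 0.506 to 14.1, 51.7 and 42.5 FPKM (4.77). Its relative Myc, a driver of ribosome and nucleolar genes, fell from 708, 672 and 713 to 104, 112 and 105 FPKM (-2.76 ± 0.06, adjusted p = 2.58e-07). The nucleolar gene Nop56 fell from 758, 776 and 759 to 210, 301 and 322 FPKM (-1.54), and Polr1b, a subunit of RNA polymerase I, from 150, 153 and 156 to 26.1, 39.9 and 51.9 (-2.05). Srm (-3.23), Rrp9 (-2.96) and Rrp12 (-2.83) had the most negative changes of the list. The ribosomal protein genes themselves moved little: 36 of 79 fell and 6 rose, with a median of -0.13, and Rpl35 (-1.74) was the only one past 2-fold.

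Metabolic genes divided by pathway. Of 32 glycolysis and hypoxia genes 22 rose and 3 fell (median 1.05). The aldolase Aldoc rose from 0.274, 0.102 and 0.251 to 113, 56.1 and 67.9 FPKM (6.72), the lactate exporter Slc16a3 from 10.6, 11.7 and 9.13 to 193, 197 and 199 (4.12), and the mitophagy receptor Bnip3 from 2.20, 2.87 and 1.62 to 310, 306 and 280 (6.75). The glucose transporter Slc2a3 (3.07), Egln3 (2.64), Pdk1 (1.94), Vegfa (1.92) and Eno1 (1.76) rose, while the hexokinase Hk2 fell slightly, from 109, 118 and 132 to 65.6, 98.8 and 98.2 FPKM (-0.53, adjusted p = 0.0248). Gapdh (-0.13) and Pkm (0.02) were not called. Of 26 citric acid cycle genes 6 rose and 16 fell (median -0.24), with Idh1 (3.29) at 1 end and Mdh2 (-0.84) among those that fell. Of 77 oxidative phosphorylation genes 25 rose, 26 fell and 26 did not pass (median 0.02), where 35.6% and 36.8% of all genes rose and fell.

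Sterol and fatty acid synthesis genes rose: 31 of 38, 22 of them by at least 2-fold, with 2 that fell and a median of 1.19. Scd1, a fatty acid desaturase, rose from 0.0394, 0.0855 and 0.109 to 78.8, 51.0 and 65.5 FPKM (6.77 ± 0.16, adjusted p = 3.00e-07), its relative Scd2 from 5.46, 11.6 and 8.63 to 340, 292 and 342 (5.17), and Fads2 from 0.968, 2.00 and 2.09 to 107, 100.0 and 95.6 (5.53). In the sterol branch Fdps rose by 2.30 and Hmgcs1 by 2.65. The 2 that fell were Fasn, from 394, 379 and 399 to 127, 173 and 197 FPKM (-1.31), and Acaca, the genes of the first steps of fatty acid synthesis. Of 46 amino acid supply and stress genes 15 rose and 21 fell (median -0.16). Asns, the asparagine synthetase that amino acid shortage induces, rose from 9.02, 11.9 and 9.65 to 189, 162 and 141 FPKM (3.89), and Trib3 (3.72), Ddit4 (4.14) and Chac1 (2.64) rose with it.

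Of 26 tested genes of the galectin, S100, annexin and cytoskeletal list 25 rose and only Anxa3 fell (-2.66), with a median of 2.21. Anxa3 was tested through 12 h alone, so that its fall was fixed by the filter. S100a4 rose from 9.43, 7.58 and 2.76 to 414, 722 and 535 FPKM (6.35), S100a6 from 5.30, 5.91 and 3.16 to 335, 468 and 368 (6.18), and Lgals1, which encodes galectin-1, from 65.9, 87.2 and 69.8 to 1133, 1442 and 1209 (4.02 ± 0.14, adjusted p = 8.53e-07). Vim rose by 3.67, Anxa1 by 5.27, Anxa2 by 3.54 and Crip1 by 2.97. Interferon-stimulated genes split, with 16 higher and 19 lower of 45 tested (median -0.24), 5 of the lower ones through 12 h alone. The shares over all genes were 35.6% and 36.8%. Ifitm1, a membrane protein that blocks virus entry, rose from 3.06, 2.52 and 4.82 to 1442, 2395 and 1801 FPKM (8.85 ± 0.25, adjusted p = 4.71e-07), the largest rise among the genes named above, and its neighbour Ifitm2 from 24.2, 28.5 and 26.7 to 898, 1183 and 1017 (5.20). Isg15 fell from 9.99, 16.7 and 12.6 to 2.27, 2.45 and 1.85 FPKM (-2.37), and Cxcl10 (-4.87) and Oasl2 (-2.66) fell. Ctla2a and Ctla2b, a pair of near-identical protease inhibitor genes, rose by 5.84 and 6.27, with an uncertain split between them. Lad1, which encodes ladinin, was at 146, 157 and 204 FPKM at 12 h and at 0, 0.0910 and 0 on day 5, a ratio of reads of 5531 (95% interval 1892 to 26823). Lad1 was tested through 12 h alone, so that its fall was fixed by the filter.

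Several lists moved in both directions, as did all genes tested (35.6% rose and 36.8% fell). PI3K and mTOR pathway genes gave 21 higher and 10 lower of 45 (median 0.24), with Pik3cg (4.24), Sgk1 (2.69) and Pik3ip1 (2.61) higher and Mtor itself lower (-1.01). Antioxidant genes gave 9 higher and 15 lower of 36 (median -0.07), with Glrx (5.33), Mt1 (5.23) and Txnip (2.07) higher. Unfolded protein response genes gave 7 higher and 8 lower of 24 (median 0.04), and chromatin regulators 6 higher and 8 lower of 26, with Dnmt3a (-1.76), Kdm6b (-1.75) and Bmi1 (-1.59) lower.

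The let-7 pathway itself was then read. Of 19 tested genes of microRNA processing 5 rose and 8 fell (median -0.17). Dicer1, which cuts the precursors, was not called (-0.08, adjusted p = 0.487), Drosha (-0.79), the exporter Xpo5 and Tarbp2 (-1.06) fell, and Prkra rose by 3.47. Of 38 tested genes listed as known let-7 targets 13 rose and 17 fell (median -0.27), and of 38 targets that the study names 16 rose and 15 fell (median 0.11). The study chose that second list on these samples. Mature let-7 was not measured in these libraries.

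The letters CTACCTC, which pair with the seed, were looked for on the transcribed strand in the 3′ UTRs of GENCODE release M21 (GRCm38). They occur in 1653 of 20690 genes (7.99%), and in 29 of 40 known and 30 of 38 study-named targets. The stage change of lin28Tg cells did not follow them. The median log2 change was -0.03 in 10338 tested genes without the letters, -0.02 in 956 with 1 copy and -0.07 in 132 with more. The share that rose was 35.7%, 34.4% and 35.6%. In the model over 18 libraries the medians were -0.03, -0.005 and -0.15 in WT and -0.02, 0.04 and -0.07 in let-7Tg cells. The lin28Tg cells express the transgene at both stages, so their stage change cannot show whether let-7 acts on these genes. The median 3′ UTR length also differed, at 861, 2037 and 3624 bases. The copies in 6 genes described here are printed with the letters in capitals and 15 bases before them, because these genes of the target lists changed at least 2-fold between the stages, and they were picked after their values were seen. A match is a description and not a shown site.
Ccr7, chr11:99144778-99144807, minus strand: ccatcccacttataaCTACCTCaaccaaag
Bcl2l1, chr2:152781184-152781213, minus strand: accccaggggcttccCTACCTCaggcagga
Rrm2, chr12:24713347-24713376, plus strand: taaaaagctgtgtagCTACCTCagtcctgt
Igf2bp3, chr6:49086780-49086809, minus strand: tgcatttttactcaaCTACCTCaggtattc
E2f2, first of 2, chr4:136193039-136193068, plus strand: gcgtcctgcatctgtCTACCTCctcacaga
Scd2, chr19:44306473-44306502, plus strand: gataatattcctgacCTACCTCcacgggta

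The 6 genes moved in both directions: Ccr7 (-7.09) and Bcl2l1 (-2.77) fell, and Rrm2 (2.04), E2f2 (3.02), Scd2 (5.17) and Igf2bp3 rose. Igf2bp3, an RNA-binding protein of fetal tissues and a widely used let-7 target, went from 1.64, 1.67 and 1.62 to 9.67, 9.57 and 9.10 FPKM (2.16 ± 0.11, adjusted p = 3.58e-06). Myc, Mycn, Il10, Eomes and Dicer1 hold no copy in this window. Igf1r (-2.13) and Plagl2 (-1.90) fell, and Igf2bp2 (2.33) rose.

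The cell type label was checked against markers. Of 10 CD8 T cell markers 7 rose, 1 fell and 2 did not pass, and their summed level was 2742 to 3256 FPKM at 12 h and 3721 to 4188 on day 5. Cd4 stayed between 0.0686 and 1.40 FPKM in all 6 libraries, and the 6 genes of the CD4 list gave 2 higher and 1 lower. Summed markers of erythroid, dendritic and myeloid cells were lower on day 5. The sums of the platelet, stromal and NK lists were higher, and those of the B cell list overlapped. The 9 erythroid genes found in the tables summed to 83.4 to 693 FPKM at 12 h and to 0.329 to 1.60 on day 5, the 5 tested had all entered through 12 h alone, so that their fall was fixed by the filter, and Hbb-bs went from 307, 74.8 and 31.9 to 0, 0.493 and 0.234 FPKM. The 12 dendritic and MHC class II genes summed to 112 to 204 and to 18.7 to 36.9 FPKM, with 8 of 10 tested lower and 2 higher, 5 of the lower ones tested through 12 h alone, Cd74 (-6.13) and H2-Aa (-5.71) among the lower ones, and Siglech and Cd209a at 0 on day 5. The 16 myeloid genes summed to 14.4 to 24.9 and to 9.27 to 13.8 FPKM, and 6 of 16 had no read on day 5. Of 10 tested, 7 had entered through 12 h alone and were lower for that reason, and of the other 3 none fell and 2 rose.

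The 13 B cell genes found summed to 85.0 to 109 and to 32.1 to 143 FPKM, almost all of it Ighm, with 1 of 2 tested higher and Ms4a1 at 0 on day 5. Platelet genes summed to 2.41 to 2.98 and 3.56 to 4.11 FPKM with 1 of 2 tested higher, and stromal genes to 0.336 to 0.686 and 0.736 to 2.42 with 1 tested and not called. The 8 genes of the NK list summed to 46.5 to 69.4 FPKM at 12 h and to 4477 to 6185 on day 5, nearly all of it Gzma, which CTLs also express. In that list 3 genes rose and 3 fell, 2 of the latter tested through 12 h alone, and the NK cell receptor gene Ncr1 went from 2.10, 3.75 and 1.38 to 0, 0 and 0.0305 FPKM. Hbb-bs is itself a member of the erythroid list, and Cd74 and H2-Aa are members of the dendritic list, so their falls are part of those sums. Hbb-bs, H2-Aa and Ccl22 were tested through 12 h alone. The part of other cells in the falls of these 4 genes was not tested.

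**Figure D3:**
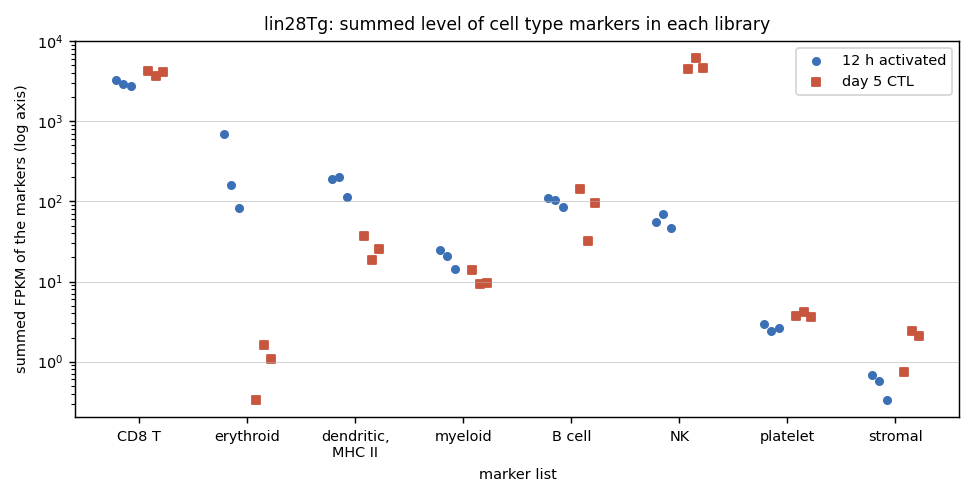
Summed FPKM of 8 marker lists in each lin28Tg library at 12 h and day 5, with 1 point per library (blue dots 12 h, red squares day 5) on a log axis. Erythroid and dendritic sums are lower in all 3 day 5 libraries, and the CD8 T cell sum is between 2742 and 4188 FPKM in all 6.

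The change between stages was then set beside that of the other genotypes, in 1 model over the 18 activated libraries. The number of genes called was alike, with 9314 (68.5%) in lin28Tg, 9541 (70.2%) in WT and 9453 (69.6%) in let-7Tg cells. By direction, 33.9% of genes rose and 34.7% fell in lin28Tg, 34.8% and 35.5% in WT, and 34.9% and 34.7% in let-7Tg cells. The difference between genotypes was tested by the interaction of genotype and stage over 13588 genes. Against WT, 715 genes (5.26%) changed differently, 189 (1.39%) with a higher and 526 (3.87%) with a lower change in lin28Tg cells. Against let-7Tg the count was 2672 (19.7%), with 1030 (7.58%) higher and 1642 (12.1%) lower. Both comparisons use the same 6 lin28Tg libraries. A lower change has more than 1 form: of the 526 genes 275 had a positive and 251 a negative change in lin28Tg cells. Without 1 of 4 libraries the count against WT dropped by more than 1.5 times, to 412 and 453 without lin28Tg 12 h replicate 2 and 3, and to 470 and 446 without lin28Tg day 5 replicate 2 and 3. The count with a higher change (189) dropped by more than 1.5 times without any of these 4 (113, 87, 102 and 105) and without WT 12 h replicate 1 (109) or 3 (103) or WT day 5 replicate 1 (119). The count with a lower change (526) did so without lin28Tg 12 h replicate 2 (299) or day 5 replicate 3 (341).

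Mitosis genes had the smaller rise in lin28Tg cells: 61 of 72 had a lower change than in WT and 68 of 72 than in let-7Tg, and none a higher change, against 3.87% and 12.1% of all genes that had a lower change. The median log2 change of the list in this model was 2.46 in lin28Tg, 4.20 in WT and 5.05 in let-7Tg cells. Ccna2 had a mean of 2.03 FPKM in WT and 0.408 in let-7Tg cells at 12 h, below each of the lin28Tg libraries (14.7, 25.8 and 24.9), and of 176 and 196 on day 5, where the lin28Tg libraries were at 207, 151 and 164. The difference of its log2 change was -3.08 from WT (adjusted p = 4.45e-05) and -4.73 from let-7Tg (adjusted p = 2.25e-07). Mki67 (-2.64 against WT, -3.72 against let-7Tg), Kif2c (-2.69, -4.10), E2f2 (-2.74, -3.60), Pclaf (-3.02, -4.56), Rrm2 (-2.46, -4.29) and Plk1 (-2.22 against WT) had the same sign. DNA replication genes had a lower change for 13 of 56 against WT and 41 of 56 against let-7Tg, and rose in 35 of 56 in WT and 48 in let-7Tg cells.

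Tcf7 changed in opposite directions. It fell in lin28Tg cells, from 92.7, 77.6 and 100.0 to 8.60, 2.93 and 8.79 FPKM, while its mean went from 101 to 150 in WT and from 95.2 to 207 in let-7Tg cells. The difference in log2 change was -4.25 against WT (adjusted p = 4.45e-05) and -4.81 against let-7Tg (adjusted p = 1.38e-06). Ccr7 fell in all 3 genotypes, from means of 265 to 36.5 FPKM in WT and of 162 to 53.6 in let-7Tg cells, and by more in lin28Tg cells (-4.08 against WT, adjusted p = 5.18e-05; -5.43 against let-7Tg, adjusted p = 6.21e-07). Of the memory factors 4 of 22 had a lower change than in WT and 8 than in let-7Tg, and none a higher change. A lower change was found for 3.87% and 12.1% of all genes.

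**Figure D4:**
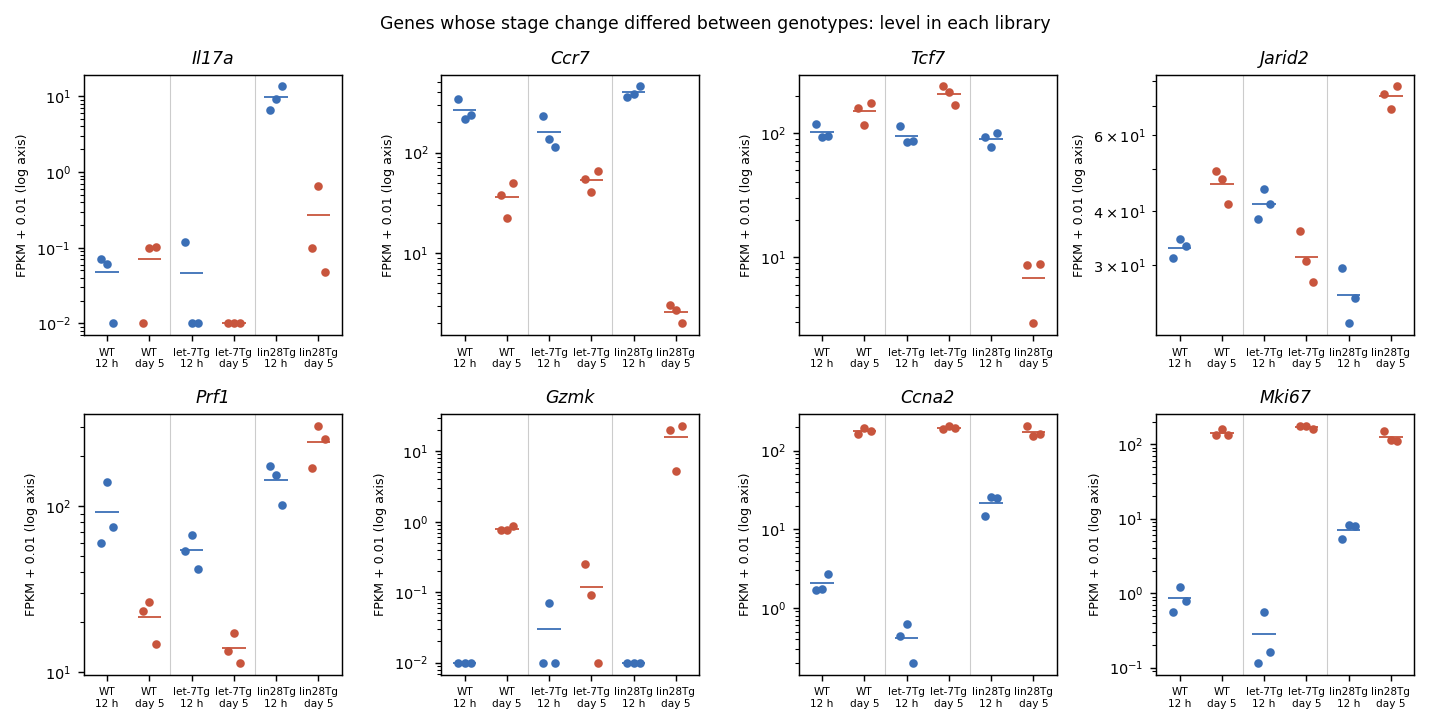
FPKM of Il17a, Ccr7, Tcf7, Jarid2, Prf1, Gzmk, Ccna2 and Mki67 in WT, let-7Tg and lin28Tg libraries at 12 h and day 5, with 1 dot per library on a log axis (FPKM + 0.01; 12 h blue, day 5 red) and bars at the mean of 3. Tcf7 is between 2.93 and 8.79 FPKM in the day 5 lin28Tg libraries, where the WT mean is 150, and Il17a stands above 6 FPKM only in the 12 h lin28Tg libraries.

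Among 24 granule genes, 5 had a higher and 2 a lower change than in WT, where 1.39% and 3.87% of all genes did, and 17 did not pass. Against let-7Tg cells 12 had a higher and 3 a lower change, where 7.58% and 12.1% of all genes did. Prf1 fell in both other genotypes, from means of 92.2 to 21.5 FPKM in WT and of 54.2 to 14 in let-7Tg cells (differences 2.84, adjusted p = 0.00104, and 2.74, adjusted p = 3.91e-04). Gzmk reached only 0.781 FPKM in WT and 0.107 in let-7Tg cells on day 5 (differences 3.50 and 4.63). The difference against WT was lost for Gzmk on the recovered reads (adjusted p = 0.351). Gzma was at means of 482 FPKM in WT and 66.5 in let-7Tg cells on day 5, below each lin28Tg library (4315, 6046 and 4371), and its change differed from let-7Tg (4.38, adjusted p = 0.00833) and did not pass against WT (2.43, adjusted p = 0.223). On the recovered reads the Gzma difference from let-7Tg did not pass either (adjusted p = 0.191). For Gzmb the difference against WT was 0.32 (adjusted p = 0.833). Ctsd (1.23 and 1.85) and, among the NK receptors, Klrb1c (2.38 and 5.01) had a higher change against both genotypes.

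The largest called differences of cytokine genes were those of type 17 genes. Il17a was at a mean of 0.0372 FPKM in WT and 0.0359 in let-7Tg cells at 12 h and at 0.0611 and 0 on day 5, so its fall was found in lin28Tg cells, with differences of -3.92 (adjusted p = 4.45e-05) and -3.77 (adjusted p = 3.83e-06). Il17f (-4.02) and Il22 (-3.91) differed from WT in the same way, with WT means of 0.760 and 0.286 FPKM at 12 h. Il2 (-1.91), Il3 (-2.95) and Il13 (-2.74) also fell by more than in WT, and Ifng did not pass (0.14, adjusted p = 0.928). Of 27 cytokine genes in this model 8 had a lower and none a higher change than in WT, where 3.87% and 1.39% of all genes did. On the recovered reads the difference from WT held for Il17a (adjusted p = 0.0260) and was lost for Il22 (0.195), Il3 (0.384) and Il2 (0.870). Il2 also lost it with no filter on low values (0.0595), with a pseudocount of 0.1 (0.0971) and without any 1 of 6 libraries (up to 0.0714).

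Other genes with differing changes belonged to several groups. Jarid2, a subunit of a histone methylation complex, rose in lin28Tg cells from 29.7, 22 and 25.2 to 74.5, 68.8 and 77.6 FPKM, while its mean went from 33.0 to 46.2 in WT and from 41.6 to 31.3 in let-7Tg cells (differences 1.11, adjusted p = 3.65e-04, and 2.00, adjusted p = 4.45e-07). Bnip3 had a higher change against both (1.74 and 2.25), and Scd1 (1.74) and Gpt2 (1.89) against let-7Tg. Mapk6 was at 115, 112 and 108 FPKM at 12 h and at 127, 128 and 130 on day 5 in lin28Tg cells, where it was not called, and its WT mean went from 123 to 75.3 (difference 0.98, adjusted p = 0.00191). Havcr2 (4.39), Ccr2 (3.56) and Ifitm1 (5.24) had a higher change than in let-7Tg cells. On the recovered reads Scd1 lost its difference from let-7Tg (-0.23, adjusted p = 0.903), and so did Ccr2 (adjusted p = 0.0516). Of 46 interferon-stimulated genes in this model 10 had a lower change than in WT and 25 than in let-7Tg, none a higher one. Among all genes 3.87% and 12.1% had a lower change. The list medians were -0.28 in lin28Tg, 0.77 in WT and 1.11 in let-7Tg cells.

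For the lists that moved most between the stages the median had the same sign in all 3 genotypes. It was -4.97, -3.41 and -2.98 for chemokines, -1.72, -1.90 and -1.86 for ribosome biogenesis, 1.18, 1.22 and 1.03 for sterol and lipid genes, and 2.17, 2.47 and 2.62 for the galectin, S100 and annexin list in lin28Tg, WT and let-7Tg cells. Of the 12 chemokine genes, 8 had been tested in lin28Tg cells through 12 h alone, which fixed their sign there. For ribosome biogenesis no gene differed from WT and 2 of 68 from let-7Tg. Cytokine genes had medians of -2.72, -0.56 and -0.20, and amino acid supply genes had 2 differences from WT and 26 of 47 from let-7Tg, 23 of them higher in lin28Tg cells. Of the 38 known let-7 targets 1 had a higher and 8 a lower change than in WT, and 6 a higher and 16 a lower change than in let-7Tg cells. Of the 38 that the study names 2 had a higher and 5 a lower change than in WT, and 7 a higher and 11 a lower change than in let-7Tg cells. Over all genes the shares were 1.39% and 3.87% against WT and 7.58% and 12.1% against let-7Tg. E2f2, Ccr7 and Rrm2 of the printed sequences are among the genes with a lower change against both genotypes, and Bcl2l1 against let-7Tg (-1.31, adjusted p = 0.00821).

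**Figure D5:**
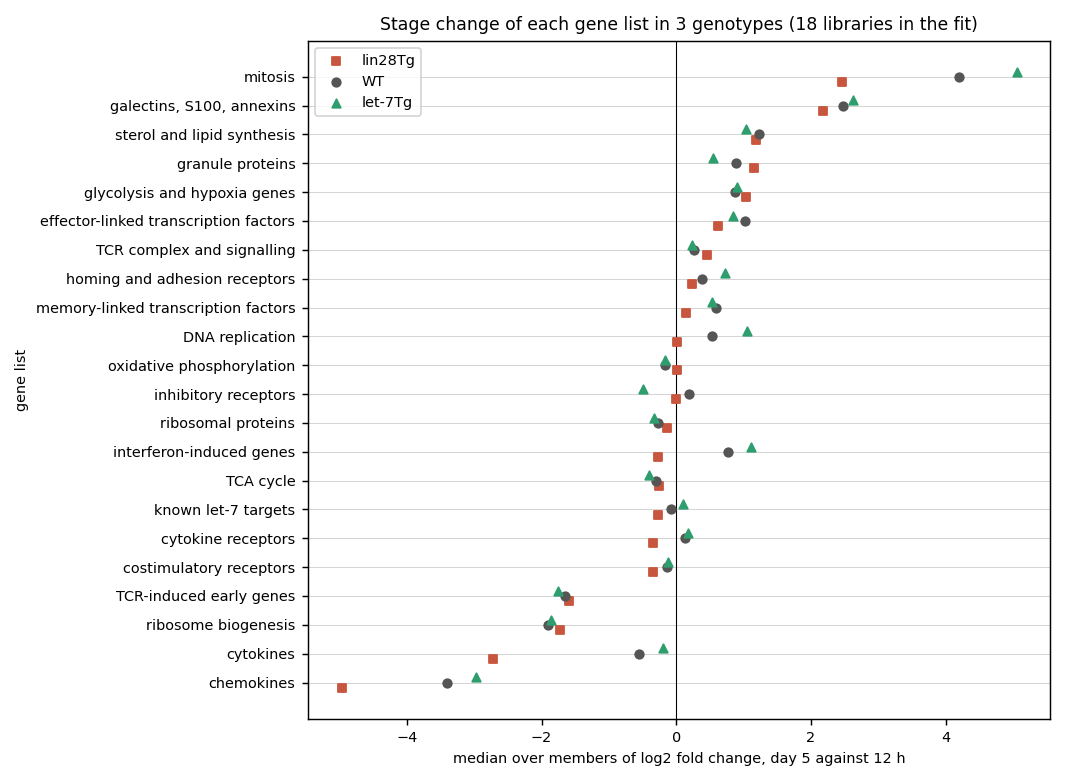
Median log2 change from 12 h to day 5 of the tested members of each list in lin28Tg, WT and let-7Tg cells, from the model over 18 libraries. The mitosis list lies at 2.46 in lin28Tg, 4.20 in WT and 5.05 in let-7Tg cells, and the ribosome biogenesis list between -1.90 and -1.72 in all 3.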

How the data were processed

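RNA-seq libraries were made from total RNA. Per the labels and the study's methods, the authors aligned paired reads with TopHat2 2.0.9 and Bowtie2 2.0.6 to GRCm38 and counted genes with HTSeq 0.6.1. The deposited unit is FPKM, 1 table per stage. The authors' own group means, fold changes and p-values in the same tables were not used. Gene IDs were named with GENCODE release M21 (34490 of 35275 matched).

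The tables were joined by gene ID. Whole reads were recovered from the FPKM steps (462839 of 462839 values whole within 0.1, over 25144 genes), which gave the depths. Genes were tested where 3 or more libraries had the value of at least 10 reads in a library of median depth and all libraries together had 15. Scaling factors were trimmed means of the log ratios between libraries. Then log2(scaled FPKM + 0.5) was tested with limma 3.58.1 (R 4.3.3) with Benjamini-Hochberg adjustment at 0.05. Printed FPKM are as deposited, and fold changes, on the log2(FPKM + 0.5) scale, understate the change of low genes. Genotypes were compared by the interaction term over 18 libraries. For the stage comparison, counts were simulated with a set spread between replicates, 50 genes changed by each fold and 12392 genes unchanged. There 56% of 2-fold and 100% of 4-fold changes were called, over 12592 genes. For the interaction with WT, simulated likewise, the shares were 14% and 90%, over 13231 genes. In the data 72.5% of genes were called between the stages, so the simulated shares need not hold for that comparison.

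The members and gene lists were chosen with earlier results of these data known. Named genes are Lin28b, the 12 largest changes in each direction with at least 20 FPKM, members that define a list or change most in it, and per interaction the 10 smallest adjusted p-values in each direction with at least 5 FPKM, plus called list members. The same replicate number did not mark related libraries (correlations of deviations 0.0166, 0.117 and -0.0562), so no replicate block was used. Replicates differed by more than counting noise (mean chi-square per gene 7.27 to 45.1), and none was a repeat deposit. Scaling, filter, pseudocount, test, block and leaving out single libraries were varied. Results for some genes are not reported here.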

Additional observations from a re-analysis of the deposited data

Results flagged for a closer look

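A test of the difference between the genotypes' stage changes, the interaction of genotype and stage in limma with Benjamini-Hochberg adjustment over 13588 genes, picked the results given here. It covers 715 genes against WT and 2672 against let-7Tg cells. Each value is the log2 change from 12 h to day 5 in lin28Tg cells minus that in the other genotype. No cause was tested for any of them.

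Against WT the change was higher in lin28Tg cells for Esm1 (3.41), E330009J07Rik (1.03), Jarid2 (1.11), Gzmk (3.50), Prf1 (2.84), Galnt10 (1.32), Ifitm10 (1.95), Mapk6 (0.98), Ptpre (1.82) and Phf10 (0.73), the 10 smallest adjusted p-values in this direction. It was also higher for Ctsd (1.23), Bnip3 (1.74), Gzme (5.41), Gzmf (4.66), Ccl4 (2.13), Sult2b1 (2.21), Klhl30 (1.80) and Lin28b itself (0.80). The Lin28b difference lost its call in 4 settings beside voom (adjusted p = 0.0820 with 12 libraries in the fit, 0.0626 with a filter at 1 FPKM, 0.0817 with no filter and 0.0687 with a pseudocount of 0.1) and without any 1 of 9 libraries (up to 0.0927). Gzme lost its call with 12 libraries in the fit (0.0572) and without lin28Tg day 5 replicate 3 (0.0563). With a pseudocount of 0.1 Gzmf (0.0619) and Klhl30 (0.0599) lost theirs. Esm1, which encodes a secreted proteoglycan, had no read at 12 h in lin28Tg cells and was at 9.31, 12.0 and 9.56 FPKM on day 5, against a WT mean of 0.577. Galnt10 rose from 7.94, 8.01 and 10.4 to 13.5, 18.4 and 14.9 FPKM in lin28Tg cells, while the WT mean went from 9.21 to 6.64.

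Against WT the change was lower for E2f2 (-2.74), Il17a (-3.92), Kif2c (-2.69), Tcf7 (-4.25), Plk1 (-2.22), Ccna2 (-3.08), Espl1 (-2.63), Kif18b (-2.41), Pclaf (-3.02) and Spag5 (-2.57), of which 8 are genes of the cell cycle. The same direction was found for Il17f (-4.02), Il22 (-3.91), Ccr7 (-4.08), Cxcr3 (-2.13), Il2 (-1.91), Il3 (-2.95), Mki67 (-2.64), Ccnb1 (-2.22), Rrm2 (-2.46), Jade2 (-1.18) and E2f1 (-1.39). E2f1 lost its call without WT 12 h replicate 2 (adjusted p = 0.0506), WT day 5 replicate 1 (0.0618) or lin28Tg 12 h replicate 2 (0.0683). Il2 lost its call in 8 settings beside voom (up to 0.0971). Spag5, a spindle protein gene, was at 7.78, 12.2 and 11.9 FPKM at 12 h and at 113, 84.0 and 80.3 on day 5 in lin28Tg cells, against WT means of 1.50 and 105.

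Against let-7Tg the change was higher for Jarid2 (2.00), Klhl30 (3.70), Sult2b1 (4.44), Gzmk (4.63), Gpt2 (1.89), E330009J07Rik (1.21), Scd1 (1.74), Ctsd (1.85), Uqcc2 (0.91) and Sh2d5 (2.96). The direction was the same for Gzma (4.38), Gzmc (3.75), Gzmd (7.38), Havcr2 (4.39), Cd244a (3.61), Ccr2 (3.56), Klrb1c (5.01), Ifitm1 (5.24), Il10 (2.92), Prf1 (2.74) and Lin28b (0.74). Here Lin28b lost its call with 12 libraries in the fit (adjusted p = 0.0611), with a pseudocount of 0.1 (0.0902) and without lin28Tg 12 h or day 5 replicate 3. Gzmc lost its call with no filter (0.0502) and without let-7Tg 12 h replicate 1 (0.0535) or lin28Tg day 5 replicate 2 (0.0633). Il10 lost its call with a pseudocount of 0.1 (0.0640). Sult2b1, a sulfotransferase gene, rose from 17.5, 14.3 and 13.7 to 119, 115 and 185 FPKM in lin28Tg cells, while its let-7Tg mean went from 17.2 to 6.90. Uqcc2 stayed near its level, at 124, 128 and 124 FPKM at 12 h and 115, 111 and 114 on day 5, and its let-7Tg mean went from 144 to 72.8. Cd244a, which encodes the receptor 2B4, went from 0.422, 0.660 and 0.434 to 11.6, 29.8 and 19.1 FPKM, and its let-7Tg mean from 0.244 to 0.711.

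Against let-7Tg the change was lower for Kif2c (-4.10), Ccna2 (-4.73), Aurkb (-4.37), Pclaf (-4.56), Spag5 (-3.88), E2f2 (-3.60), Kif18b (-3.61), Jade2 (-1.86), Espl1 (-3.71) and Spc24 (-3.60), and for Tcf7 (-4.81), Ccr7 (-5.43), Rrm2 (-4.29), Il17a (-3.77) and E2f1 (-2.21). Jade2, a subunit of a histone acetylation complex, was the 1 gene of the first 10 that is not of the cell cycle. It fell from 33.5, 38.2 and 36.3 to 7.19, 7.59 and 7.51 FPKM in lin28Tg cells.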

How the results depend on the processing

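The count of genes called between the stages (9163) lay between 8002 and 8378 with 1 library left out, was 8933 with a replicate block and stayed within 1.5 times of the count in every setting tried, as did the 2-fold count (3952, and 3441 to 3746 with 1 library left out). The count against WT (715) was 507 with voom on the recovered reads, 870 with the replicate block and 412 to 818 with 1 library left out, with 412 and 453 without lin28Tg 12 h replicates 2 and 3, and 470 and 446 without lin28Tg day 5 replicates 2 and 3. The count against let-7Tg (2672) lay between 2110 and 2957 with 1 library left out. The block is no pairing of related libraries, and among the single genes named for the stages it ended the call of Prf1 alone. Of 3804 values of single genes in other settings 3725 kept direction and call, 78 kept direction and lost the call, and 1 reversed: Scd1 against let-7Tg was -0.23 with voom (adjusted p = 0.903). voom also ended the difference from WT for Esm1 (adjusted p = 0.0592), Gzmk, Ifitm10, Il22, Il2, Il3, Gzme, Gzmf, Ccl4, Klhl30 and Lin28b, and from let-7Tg for Gzma, Gzmc, Gzmd, Klhl30, Ccr2, Cd244a, Il10 and Lin28b. The cause was not tested. Without a 12 h library only 2 are left, so genes with no reads on day 5 miss the minimum of 3 libraries: 3 or 4 chemokine genes then fell of 4 tested, and 11 cytokine genes of 20. Of 1050 list counts 1020 stayed within 1.5 times. With genes lacking a read at 1 stage set to their bound, the dendritic list's median was -2.46 in place of -1.61. Low depth limits genes under about 0.3 FPKM.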

Other observations

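The naive lin28Tg libraries, which enter no comparison above, give levels in bulk RNA before activation. Lin28b was at 63.5 ± 6.16 FPKM (SD, n = 3) in them. Means of 3 naive libraries were 587 FPKM for Tcf7, 288 for Ccr7 and 303 for the chemokine gene Ccl5. Gzma was at a mean of 93.2 FPKM in the naive libraries, above its 12 h levels of 8.67 to 18.4, and Mki67 at 18.7, above 5.30 to 8.22 at 12 h. Il17a was at 0 in all naive lin28Tg libraries. The naive libraries also held more RNA of other cells, so these levels cannot be assigned to the CD8 T cells alone. Their summed myeloid markers were between 262 and 1550 FPKM, their dendritic and MHC class II markers between 1392 and 3812, their erythroid markers between 494 and 1995, and the NK list, which holds Gzma, between 132 and 269, against 46.5 to 69.4 at 12 h. Ccl22 was at a mean of 148 FPKM and Cd74 at 861 in these libraries.

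Within the 18-library model, 29 genes were called in opposite directions in lin28Tg and WT cells with a called difference, and 171 in lin28Tg and let-7Tg cells.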
